A study of Homo sapiens with 6 samples.

Results

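The genes of the proteasome and the immunoproteasome were examined in TPC1 cells that overexpressed TFCP2L1 and in TPC1 cells with a vector. Members were the rows of the count table whose symbol begins with PSMA, PSMB, PSMC, PSMD, PSME, PSMF or PSMG and a number, without antisense names; no pseudogene row matched. This gave 48 of 21173 genes, of which 46 encode subunits, activators, an inhibitor or assembly chaperones. The other two, PSMC3IP and PSME3IP1, encode proteins that bind such a subunit or activator and were counted with the members but described apart. PSMB8, PSMB9, PSMB10, PSME1 and PSME2, the inducible genes, were set against the other 43. PSMA8 and PSMB11, a testis form and a thymus form, had no row among the deposited counts, so they were not analysed here. TPC1, an established human line from papillary thyroid carcinoma, has a RET fusion. Of the 6 libraries, 3 came from TPC1 cells made to overexpress TFCP2L1, which encodes a CP2-type transcription factor, and 3 from TPC1 cells given a vector, whose genotype is labelled WT. The labels do not give the promoter that drove TFCP2L1, whether the cells were 1 clone, or from how many cultures the replicates came. The p-values therefore reflect the spread between these libraries, which may be technical.

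The proteasome is the chamber in which cells break down proteins marked with ubiquitin. Its 20S core is a barrel of outer alpha rings, which gate the channel, and inner beta rings, which hold the cutting sites of PSMB5, PSMB6 and PSMB7, and the 19S cap unfolds and feeds in the substrate. In cells exposed to interferon, and in many leukocytes, PSMB8, PSMB9 and PSMB10 take the places of PSMB5, PSMB6 and PSMB7 in newly built cores, and PSME1 with PSME2 forms the PA28 activator. This immunoproteasome is known for making many of the peptides that MHC class I molecules present.

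The stretches around the transcription starts of the 5 inducible genes are shown because 4 of them hold the same letters. The motif searched, on both strands, was GAAA and GAAA with any 2 bases between, a form of the element that interferon regulatory factors bind. Each line gives 100 bases before the start and 30 from it, on the gene's own strand, from RefSeq on GRCh38.p14, with the match in capitals. For PSMB8 the second of its 2 listed starts is shown; the window of the first held no match.
PSMB10 (chr16:67936821-67936950, minus strand): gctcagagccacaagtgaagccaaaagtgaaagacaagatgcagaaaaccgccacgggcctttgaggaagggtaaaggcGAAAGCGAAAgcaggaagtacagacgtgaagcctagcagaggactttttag
PSME2 (chr14:24146581-24146710, minus strand): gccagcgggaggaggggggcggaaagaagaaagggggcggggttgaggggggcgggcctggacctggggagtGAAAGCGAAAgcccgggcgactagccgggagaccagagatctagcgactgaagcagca
PSMB8 (chr6:32844018-32844147, minus strand): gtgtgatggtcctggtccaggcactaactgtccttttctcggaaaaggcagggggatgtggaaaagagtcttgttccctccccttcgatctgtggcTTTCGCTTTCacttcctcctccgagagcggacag
PSME1 (chr14:24136094-24136223, plus strand): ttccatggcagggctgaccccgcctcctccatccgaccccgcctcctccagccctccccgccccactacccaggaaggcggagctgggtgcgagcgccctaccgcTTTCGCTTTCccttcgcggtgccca
PSMB9 (chr6:32854092-32854221, plus strand): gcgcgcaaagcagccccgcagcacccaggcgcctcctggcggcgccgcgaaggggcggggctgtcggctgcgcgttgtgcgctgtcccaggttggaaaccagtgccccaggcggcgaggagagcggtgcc
The match began 21 bases before the start in PSMB10, 28 before it in PSME2 and 4 before it in PSMB8, and at base 6 from the start in PSME1. PSMB10 and PSME2 read GAAAGCGAAA on the gene's strand, and PSMB8 and PSME1 hold its reverse complement, TTTCGCTTTC. PSMB9 had no match in its 300-base window, from 250 bases before the start to 50 after it. Such windows were found for 42 of the 48 members, and the motif was in those of 7: these 4 with PSMA4, PSMB4 and PSMG4. Of all 27305 genes in the table, 4.38% had a window that held it. The exact letters GAAAGCGAAA, picked out after the matches were seen, were in 35 of the table's 35116 windows (0.0997%), and PSMB8, PSMB10, PSME1, PSME2 and PSMG4 were among their genes. For comparison, TGACNNNGC, a form of the antioxidant element, was in the windows of 15 of the 42 members and of 16.1% of all genes in the table, and CCAAT was in those of 21 members and of 39.7% of all genes. TTCNNNGAA, the core of the gamma-activated site of interferon-induced promoters, was in those of 7 members, PSMB8 among them, and of 9.38% of all genes. GGG and TCC with 4 bases between, a loose form of the NF-kB site, was in those of 10 members and of 25.9% of all genes. The pair of CCAG letters with 6 bases between them that resembles the site of CP2 factors was in the windows of PSMB8 only among these members, and in those of 1365 of all 27305 genes; none of these matches overlapped the capitals shown.

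Library totals ran from 37928516 to 38987434 reads. TFCP2L1 had 13578, 13885 and 12333 reads in TFCP2L1 cells, against 0, 0 and 1 in vector cells. The thyroid factor gene PAX8 had 449, 451 and 532 CPM (the reads set to a common library size by edgeR's TMM scaling) in TFCP2L1 cells and 524, 571 and 537 CPM in vector cells, and the epithelial keratin gene KRT18 147 to 164 CPM in TFCP2L1 cells and 149 to 177 CPM in vector cells, while TG was at most 1.49 CPM in any library. Leukocytes use the immunoproteasome without stimulation. Of 12 leukocyte markers 5 had reads, and their summed level was 1.04 to 1.86 CPM in TFCP2L1 cells and 1.67 to 2.18 CPM in vector cells; PTPRC had at most 7 reads in a library. The mitochondrial genome gave 6.19% ± 1.25 of reads in TFCP2L1 cells and 5.66% ± 0.910 in vector cells (SD, n = 3 each).

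Of the 3 inducible catalytic subunits, PSMB8 and PSMB9 rose in TFCP2L1 cells and PSMB10 did not pass the test, and of the 43 members outside the inducible genes 1 was called. By edgeR's quasi-likelihood test over all 14431 tested genes, 3 of the 48 members rose in TFCP2L1 cells: PSMB9, PSMB8 and the 19S lid gene PSMD11. This is 3 members against 4.63% of all tested genes called higher. No member fell, against 6.94% of all genes called lower. At an unadjusted edgeR p under 0.05, 10 of the 48 members were higher, where 11.8% of all tested genes were. At the same threshold 1 member, PSME4, was lower, where 13.3% of all tested genes were. Without TFCP2L1 replicate 2, PSME4 was called lower. DESeq2 and limma-voom also called 0 members lower. The 48 genes were all expressed above the low count filter. Counts of calls moved with single libraries, between 0 higher without vector replicate 3 and 6 without TFCP2L1 replicate 2. Because the RNA came from bulk cultures, more cells with a transcript and more transcript per cell cannot be told apart.

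PSMB9 changed most among the members. It replaces PSMB6 in the core and lies in the MHC region of chromosome 6 (GRCh38, 32844136 to 32859585, plus strand, ENSG00000240065.7, from GENCODE v29, as are the other gene positions given). RefSeq's start, shown above, lies inside this span. It had 13.3, 9.26 and 9.52 CPM in TFCP2L1 cells, against 7.04, 7.22 and 5.93 CPM in vector cells. All 3 TFCP2L1 libraries were above all vector libraries, and TFCP2L1 replicate 1 was the highest. The log2 fold change was 0.67 ± 0.16 (SE), a 1.59-fold rise, with an edgeR adjusted p of 0.0127. Leaving out TFCP2L1 replicate 1 (0.48, edgeR adjusted p = 0.0887) or vector replicate 3 (0.59, adjusted p = 0.0831) ended the call.

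PSMB8, which replaces PSMB5, lies beside PSMB9 (chromosome 6, 32840717 to 32844703, minus strand, ENSG00000204264.9). It had 74.3, 63.0 and 59.6 CPM in TFCP2L1 cells, against 54.2, 50.1 and 55.3 CPM in vector cells. The groups did not overlap, though TFCP2L1 replicate 3 and vector replicate 3 were close. PSMB8 rose by 0.30 ± 0.09 on the log2 scale (1.23-fold; edgeR adjusted p = 0.0425). The call lay near the threshold and was lost without TFCP2L1 replicate 1 (adjusted p = 0.188) or without vector replicate 1 (0.113), 2 (0.143) or 3 (0.106). In GENCODE v29, 20.6% of PSMB8 exon bases are shared with other genes, chiefly PSMB8-AS1 on the opposite strand, and no source used here says whether counting used strand. PSMB8-AS1 itself had 152, 112 and 87 reads in TFCP2L1 cells and 96, 71 and 123 in vector cells, so its groups overlapped.

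PSMB10, which replaces PSMB7, was not called, though its libraries did not overlap either. It lies on chromosome 16 (67934502 to 67937087, minus strand, ENSG00000205220.11). Its level was 13.9, 10.9 and 12.8 CPM in TFCP2L1 cells, against 9.70, 10.1 and 9.46 CPM in vector cells. The lowest TFCP2L1 library was 10.9 CPM and the highest vector library 10.1 CPM. The log2 fold change was 0.36 ± 0.13, with a 95% interval of 0.09 to 0.63 and an edgeR adjusted p of 0.0841. Without TFCP2L1 replicate 2, the lowest of its group, it was called (0.45, edgeR adjusted p = 0.0348). Exact two-sided permutation tests of CPM gave p = 0.1 for PSMB8, PSMB9, PSMB10 and PSME2, the smallest that 3 against 3 libraries allow, and p = 0.5 for PSME1.

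**Figure D1:**
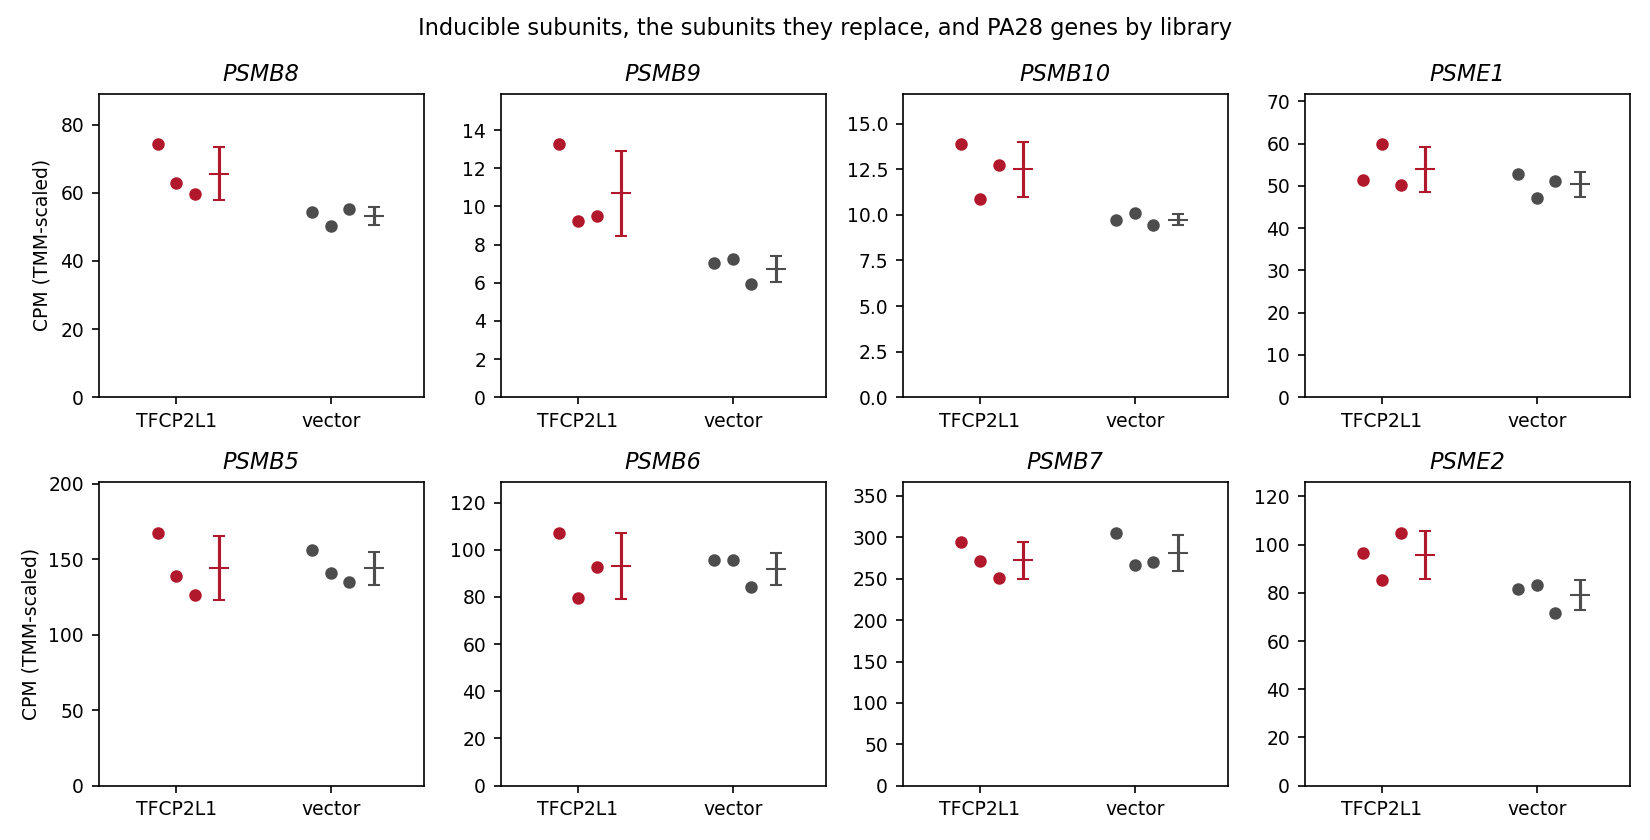
Level of 8 genes in each library, as CPM after TMM scaling; dots are libraries in the order of their replicate numbers, and the bar beside them is the mean with its SD (n = 3). The 3 TFCP2L1 libraries lie above all vector libraries for PSMB8, PSMB9, PSMB10 and PSME2, and the groups overlap for PSME1, PSMB5, PSMB6 and PSMB7.

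The subunits whose places these take had overlapping groups. PSMB5, which carries the chymotrypsin-like site, had 168, 139 and 126 CPM in TFCP2L1 cells, against 156, 141 and 135 CPM in vector cells. PSMB6, with the caspase-like site, had 107, 79.5 and 92.7 CPM in TFCP2L1 cells, against 95.8, 95.7 and 84.2 CPM in vector cells. PSMB7, with the trypsin-like site, had 295, 271 and 251 CPM in TFCP2L1 cells, against 306, 267 and 270 CPM in vector cells. TFCP2L1 replicate 1 was the highest of its group for each of them. Their log2 fold changes had 95% intervals of -0.20 to 0.21 for PSMB5, -0.19 to 0.23 for PSMB6 and -0.22 to 0.13 for PSMB7.

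Set against the subunit it replaces, each inducible subunit was higher in TFCP2L1 cells. These ratios use FPKM, the deposited reads divided by gene length and library total, so that genes of different length can be compared. The PSMB9 to PSMB6 ratio was 0.103, 0.0966 and 0.0853 in TFCP2L1 cells, against 0.0610, 0.0627 and 0.0584 in vector cells. The PSMB8 to PSMB5 ratio was 0.361, 0.370 and 0.385 in TFCP2L1 cells, against 0.283, 0.290 and 0.334 in vector cells. The PSMB10 to PSMB7 ratio was 0.0475, 0.0405 and 0.0513 in TFCP2L1 cells, against 0.0319, 0.0381 and 0.0353 in vector cells. The groups did not overlap in any of the 3 ratios, and the margin was narrowest for PSMB10. The inducible subunits together made up 11.6% ± 0.292 (SD, n = 3) of the summed FPKM of the 6 catalytic genes in TFCP2L1 cells and 9.19% ± 0.493 in vector cells. Constitutive catalytic transcript thus outweighed inducible transcript in every library. No test was made on these sums and ratios.

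**Figure D2:**
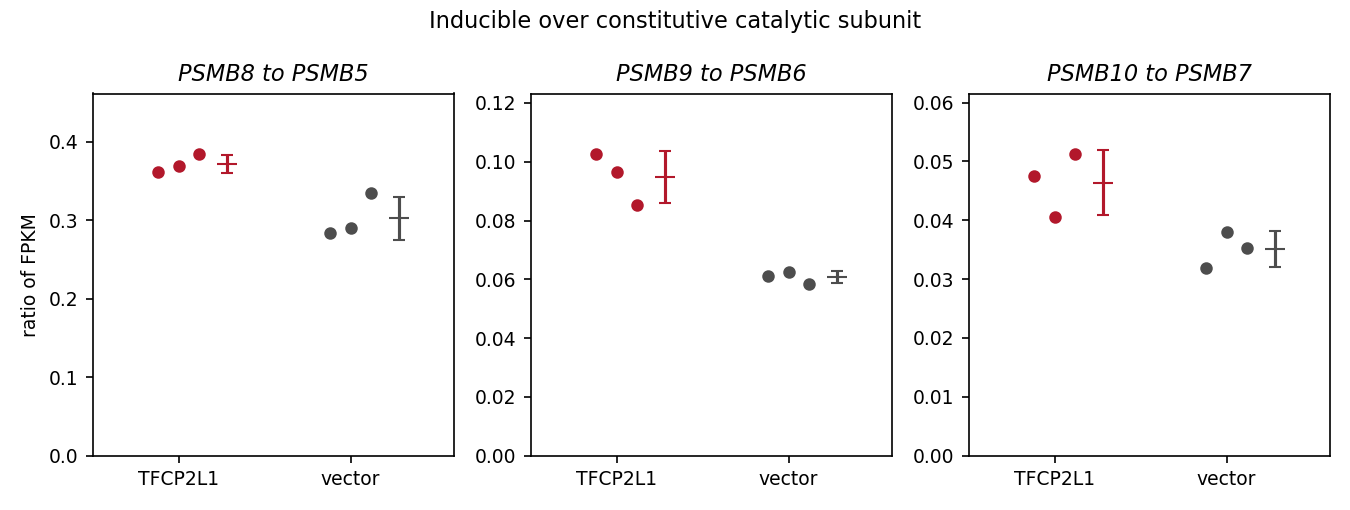
Ratio of the FPKM of each inducible catalytic subunit to that of the subunit it replaces, by library, with the mean and SD of 3 libraries beside the dots. All 3 ratios are higher in each TFCP2L1 library than in any vector library, with means of 0.372 and 0.302 for PSMB8 to PSMB5, 0.0949 and 0.0607 for PSMB9 to PSMB6 and 0.0464 and 0.0351 for PSMB10 to PSMB7 in TFCP2L1 and vector cells.

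The PA28 genes differed in how far their groups stood apart. PSME2, the beta subunit (chromosome 14, 24143362 to 24147570, minus strand, ENSG00000100911.15), had 96.6, 85.1 and 105 CPM in TFCP2L1 cells, against 81.6, 83.4 and 71.8 CPM in vector cells. Its groups did not overlap, but TFCP2L1 replicate 2 and vector replicate 2 were close. Its log2 fold change of 0.28 ± 0.09 was not called (edgeR adjusted p = 0.0591), and it was called without TFCP2L1 replicate 2 (0.35, adjusted p = 0.0153). It was also called with DESeq2 (0.28, adjusted p = 0.0381). PSME1, the alpha subunit (chromosome 14, 24136158 to 24138967, plus strand, ENSG00000092010.14), had 51.4, 59.9 and 50.3 CPM in TFCP2L1 cells, against 52.9, 47.1 and 51.2 CPM in vector cells. Its groups overlapped, and the 95% interval of its log2 fold change was -0.09 to 0.29. The difference between the changes of PSME1 and PSME2 was not tested. Per length, PSME2 was the higher of them, at a mean of 101 FPKM in TFCP2L1 cells and 82.0 FPKM in vector cells, with PSME1 at 47.7 FPKM in TFCP2L1 cells and 43.8 FPKM in vector cells. PSME3, which forms the nuclear PA28 gamma, had 190, 201 and 211 CPM in TFCP2L1 cells and 185, 190 and 181 CPM in vector cells (log2 fold change 0.11, edgeR adjusted p = 0.351). PSME4, the PA200 activator, had 157, 182 and 159 CPM in TFCP2L1 cells, against 180, 187 and 193 CPM in vector cells, with 1 TFCP2L1 library above the lowest vector library (-0.17, edgeR adjusted p = 0.180). PSMF1, an inhibitor of the core in vitro, had 76.1, 77.2 and 82.3 CPM in TFCP2L1 cells, against 74.5, 69.8 and 74.8 CPM in vector cells (0.10, edgeR adjusted p = 0.429).

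The 20S core genes showed no called change outside the inducible subunits, by edgeR, DESeq2 or limma-voom. Of these 14, 0 had an unadjusted edgeR p under 0.05, where 11.8% of all tested genes were higher and 13.3% lower. None of the 7 alpha ring genes had groups that stood apart, and their median log2 fold change was 0.02. The extremes were PSMA4 (0.16 ± 0.08, edgeR adjusted p = 0.201) and PSMA5 (-0.09 ± 0.10, adjusted p = 0.655). Of the 7 constitutive beta ring genes, PSMB2 had the highest log2 fold change (0.15 ± 0.07, edgeR adjusted p = 0.226) and PSMB7 the lowest (-0.05 ± 0.08), with a median of 0.04. PSMB2 was at 286, 297 and 320 CPM in TFCP2L1 cells and 271, 284 and 259 CPM in vector cells, the only gene of this ring whose groups did not overlap. Levels differed widely between subunits of the same ring: per length, PSMA7 had a mean of 467 FPKM in TFCP2L1 cells and 451 FPKM in vector cells, and PSMA5 31.7 FPKM in TFCP2L1 cells and 33.1 FPKM in vector cells.

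**Figure D3:**
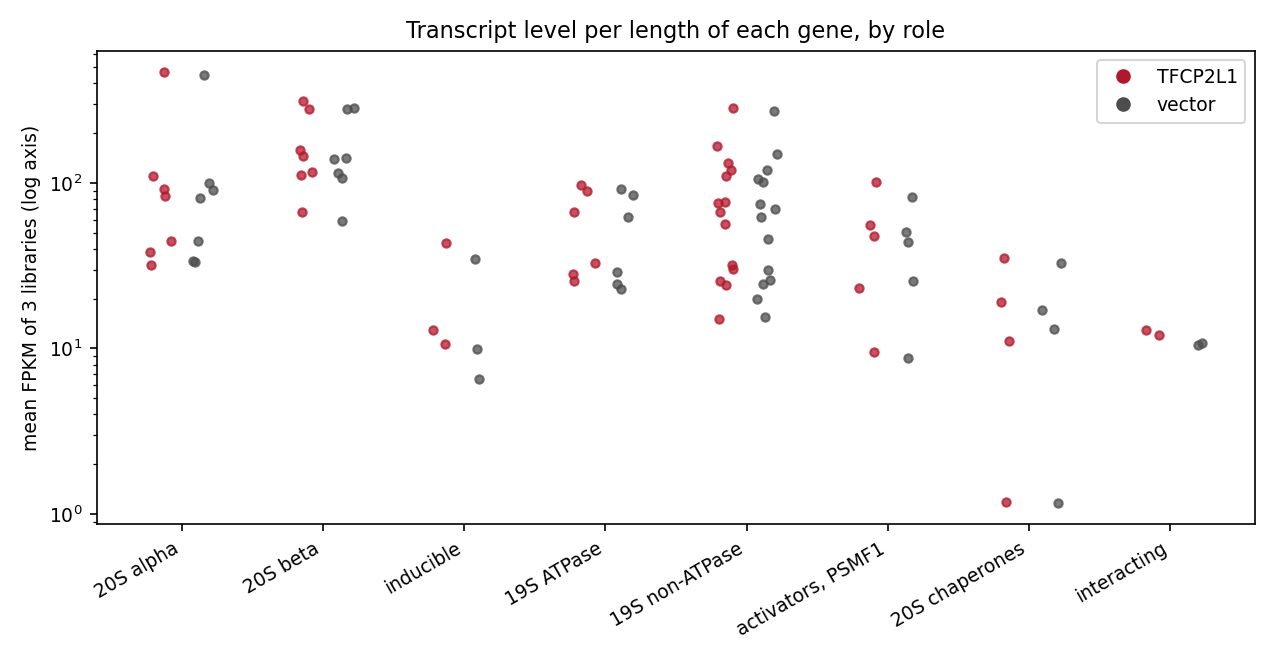
Mean FPKM of 3 libraries for each of the 48 genes on a log axis, grouped by role, with TFCP2L1 cells left of vector cells in each group. PSMA7 is the highest (467 FPKM in TFCP2L1 and 451 FPKM in vector cells), PSMG4 the lowest (1.18 FPKM in TFCP2L1 and 1.17 FPKM in vector cells), and PSMB9 and PSMB10 lie far below the constitutive beta ring genes.

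In the 19S cap, PSMD11 was the member that rose. PSMD11 encodes a lid subunit (RPN6 in yeast) that bridges cap and core (chromosome 17, 32444261 to 32483318, plus strand, ENSG00000108671.10). It had 220, 226 and 221 CPM in TFCP2L1 cells, against 185, 184 and 180 CPM in vector cells. The 3 libraries of each group were close together and far from those of the other. It rose by 0.28 ± 0.07 on the log2 scale (1.21-fold; edgeR adjusted p = 0.0127). Leaving out vector replicate 1, 2 or 3 ended the call (edgeR adjusted p = 0.0665, 0.0503 and 0.0855 in that order), although the log2 fold change stayed between 0.27 and 0.29 whichever library was left out. Of the 14 non-ATPase genes the other 13 were not called, and 11 of the 14 log2 fold changes were positive, with a median of 0.09. PSMD5, PSMD9 and PSMD10, counted among the 14, encode assembly chaperones. At an unadjusted edgeR p under 0.05, 4 of the 14 were higher and 0 lower. Over all tested genes, 11.8% were higher and 13.3% lower at that threshold. PSMD12, another lid subunit, had 114, 132 and 112 CPM in TFCP2L1 cells, against 105, 93.8 and 103 CPM in vector cells (0.25 ± 0.08, edgeR adjusted p = 0.0624), and was called with DESeq2. PSMD3, also of the lid, had 269, 232 and 258 CPM in TFCP2L1 cells, against 216, 226 and 214 CPM in vector cells (0.21 ± 0.08, edgeR adjusted p = 0.0855). PSMD6 had 61.8, 65.4 and 48.9 CPM in TFCP2L1 cells, against 49.1, 49.5 and 47.8 CPM in vector cells, with TFCP2L1 replicate 3 inside the vector range (0.27 ± 0.10, adjusted p = 0.0972). PSMD9, a chaperone of cap assembly, had the lowest log2 fold change of this group (-0.07 ± 0.13).

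The 6 ATPase genes, which form the ring that unfolds substrates, all had a positive log2 fold change, and 0 were called by edgeR, DESeq2 or limma-voom; PSMC2 had an unadjusted p under 0.05. They ran from PSMC5 (0.05 ± 0.12, edgeR adjusted p = 0.849) to PSMC2 (0.18 ± 0.08, adjusted p = 0.150), with a median of 0.11. PSMC2 was at 89.9, 95.6 and 84.6 CPM in TFCP2L1 cells, against 80.6, 76.1 and 81.6 CPM in vector cells, so its groups did not overlap. PSMC1 did not overlap either (197, 195 and 189 CPM in TFCP2L1 cells, against 182, 169 and 174 CPM in vector cells), but 75.8% of its exon bases are shared with other genes, mostly NRDE2 on the opposite strand, and 13 pseudogenes carry its name, so its level is uncertain. In all, 12 members have pseudogenes by name, PSME2 with 2 among them.

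None of the 20S assembly chaperone genes was called by edgeR. At an unadjusted edgeR p under 0.05 there were 0, where 11.8% of all tested genes were higher and 13.3% lower. PSMG1 had the highest log2 fold change of the 4 (0.14 ± 0.10, edgeR adjusted p = 0.422). PSMG3 had 703, 653 and 488 reads in TFCP2L1 cells, against 814, 607 and 728 reads in vector cells, the lowest log2 fold change of all members (-0.26 ± 0.14, adjusted p = 0.263). Its groups overlapped. Of the interacting proteins, PSMC3IP, a partner of recombination proteins, had 21.5, 19.8 and 19.8 CPM in TFCP2L1 cells, against 15.1, 18.2 and 17.7 CPM in vector cells (0.26 ± 0.11, edgeR adjusted p = 0.146), and PSME3IP1 had a log2 fold change of 0.14 ± 0.08; other genes cover 29.9% of the exon bases of PSMC3IP.

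**Figure D4:**
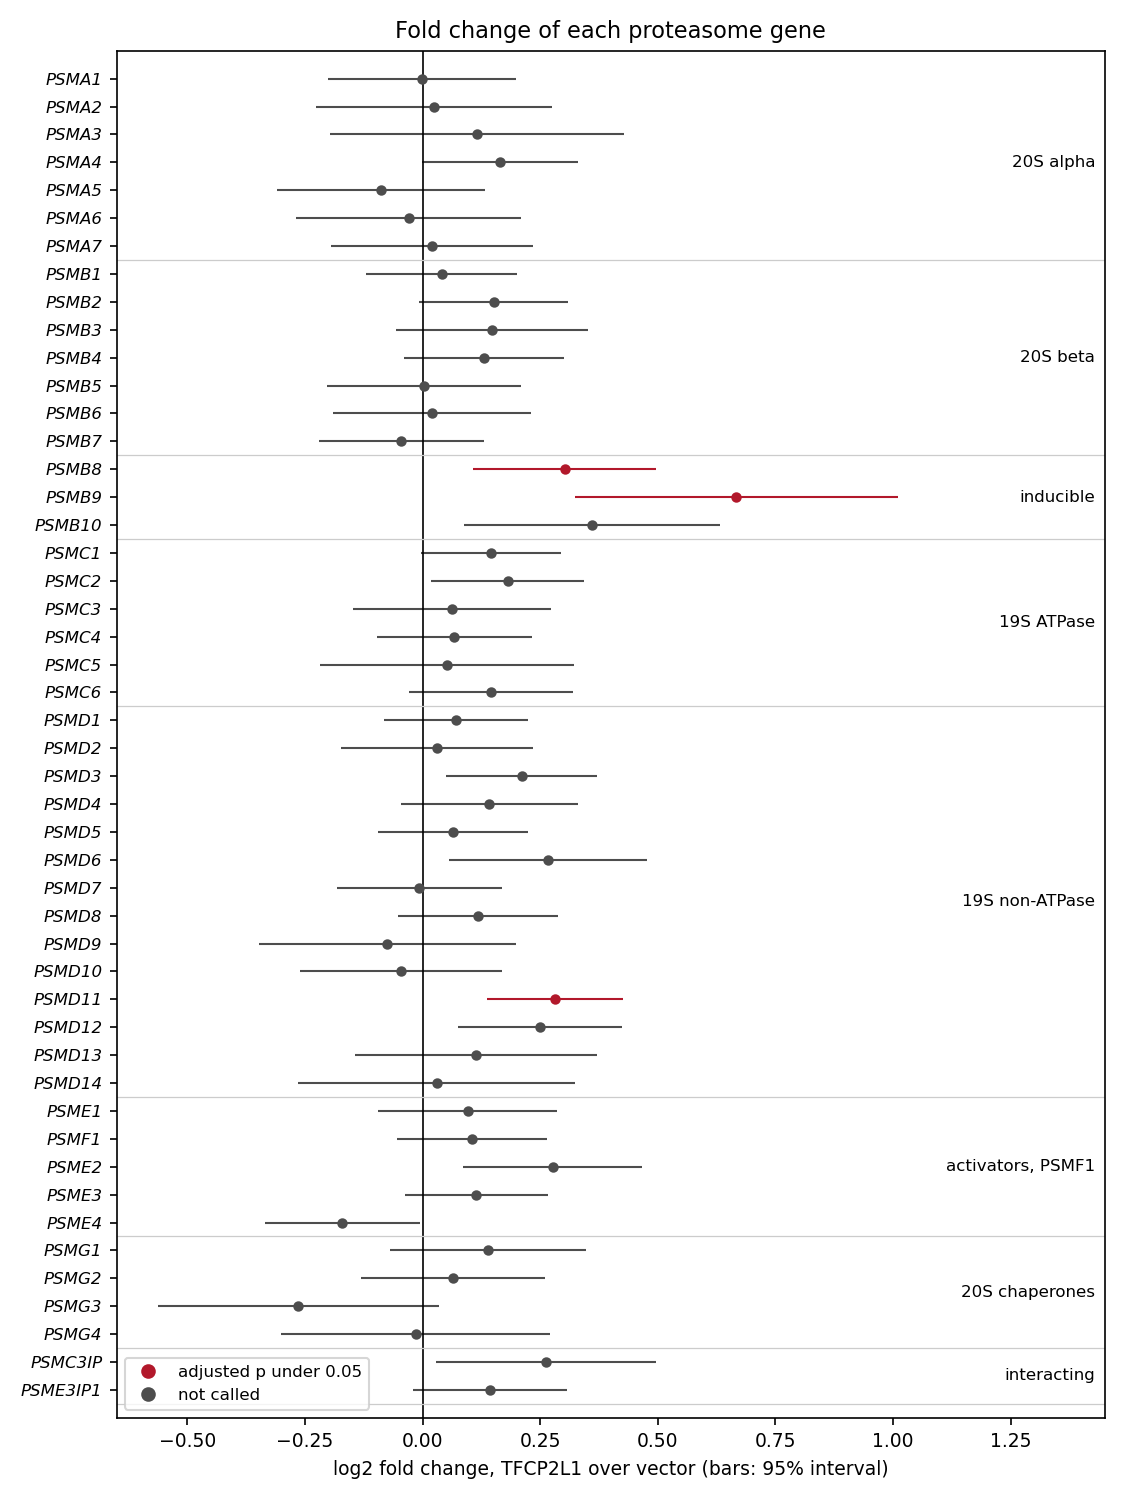
Log2 fold change of TFCP2L1 over vector cells for each of the 48 genes, grouped by role, with the 95% interval of edgeR's quasi-likelihood fit. The called genes PSMB8 (0.30), PSMB9 (0.67) and PSMD11 (0.28) are in red, and the other 45 in grey.

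Over all members the changes were small and lay more often above 0. Of the 48 log2 fold changes 38 were positive, against 50.5% of all tested genes, and the median was 0.10, against 0.00 for all tested genes. The members' median was 0.05 without vector replicate 2, with 32 positive, and 0.14 without TFCP2L1 replicate 3, with 45 positive. The 5 inducible genes had a median of 0.30, with 5 positive, and the other 43 a median of 0.07, with 33 positive. The groups did not overlap, with TFCP2L1 higher, for 14 members: 4 of the 5 inducible genes and 10 of the other 43. The same held for 14.4% of all tested genes. No member had groups apart with TFCP2L1 lower, against 15.6% of all tested genes. Members share libraries, so these counts are not independent of each other.

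Much of the spread within groups was common to the members. TFCP2L1 replicate 3 was the lowest of its group for 35 of the 48 members and vector replicate 2 for 31, and 30 members were lowest in both. Over all tested genes, TFCP2L1 replicate 3 was the lowest for 34.5% and vector replicate 2 for 35.6%. All 7 alpha ring genes and all 6 ATPase genes were among the 30 members. In these 2 libraries the members lay a median of -0.12 and -0.07 from their group mean on the log2 CPM scale, where all tested genes had a median of 0.01 and 0.00. The same libraries had the highest mitochondrial share of reads, 7.59% in TFCP2L1 replicate 3 and 6.72% in vector replicate 2, against 5.13% to 5.80% in the other 4. PSMB2, PSMD5, PSMD8, PSME2, PSME3 and PSMG4 ran the other way and were the highest of their group in both. Without these 2 libraries, a choice made after seeing the data, 4 members were called higher (PSMB8, PSMB9, PSMD6 and PSMD11) and 0 lower, with log2 fold changes of 0.33 for PSMB8, 0.80 for PSMB9 and 0.29 for PSMD11. The part of mitochondrial share or RNA quality in this spread was not tested.

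**Figure D5:**
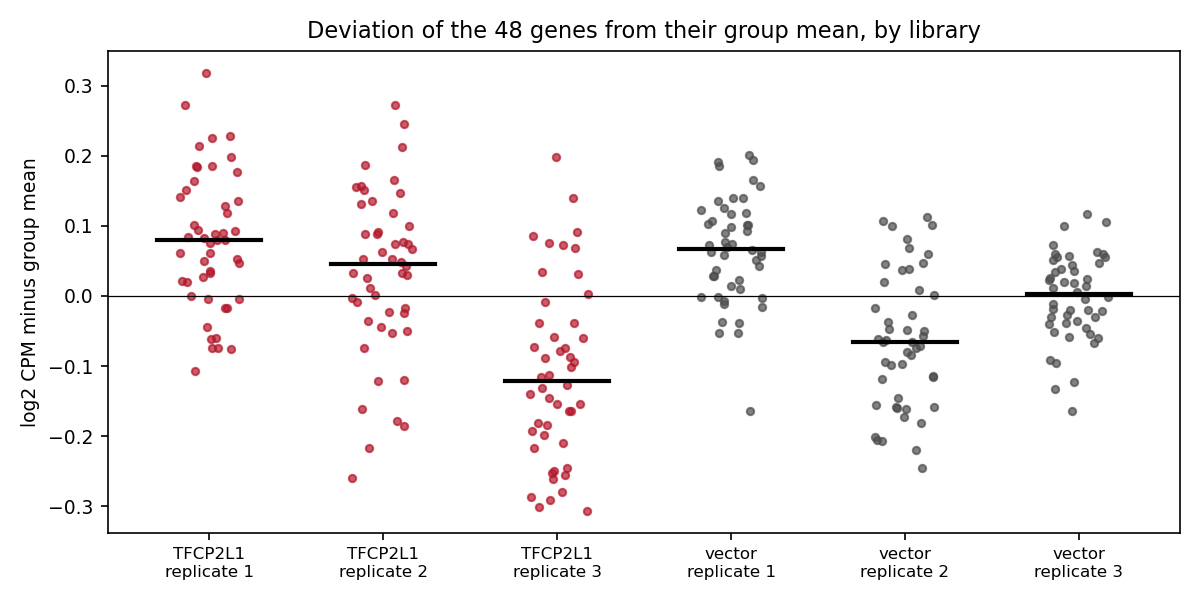
Log2 CPM of each of the 48 genes minus the mean of its group, by library; the black bar is the median. The medians are lowest in TFCP2L1 replicate 3 (-0.12) and vector replicate 2 (-0.07) and highest in TFCP2L1 replicate 1 (0.08).

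Genes that work with the proteasome were listed as partners, such as receptors, deubiquitinases and assembly factors, and the 20 tested had a median log2 fold change of 0.08, beside 0.00 for all tested genes. The deubiquitinase gene UCHL5 was not called (0.23 ± 0.09, edgeR adjusted p = 0.0982). POMP, the chaperone of core assembly, was at 0.06 ± 0.15 (edgeR adjusted p = 0.839). Among 7 tested genes of ubiquitin and its activation, UBE2L6, the conjugating enzyme of ISG15, rose (61.5, 58.9 and 71.4 CPM in TFCP2L1 cells, against 47.5, 51.0 and 45.9 CPM in vector cells; 0.41 ± 0.09, edgeR adjusted p = 0.00619). Over all tested genes, 4.63% rose. Without vector replicate 3 the edgeR adjusted p of UBE2L6 was 0.0538. The other 6 were not called, UBA1, the main ubiquitin-activating enzyme, having the next smallest p (0.13 ± 0.07, edgeR adjusted p = 0.295).

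NFE2L1 encodes the factor that raises proteasome genes when proteasome activity falls short. NFE2L1 had 358, 341 and 363 CPM in TFCP2L1 cells, against 371, 382 and 392 CPM in vector cells (-0.11 ± 0.07, edgeR adjusted p = 0.362). By edgeR, 6.94% of all tested genes fell and 4.63% rose. Of the 14 tested genes of NFE2L1, its processing and its partners, 1 fell and 0 rose. This was MAFG, a small MAF protein that pairs with NFE2L1, with 94.7, 79.8 and 81.5 CPM in TFCP2L1 cells, against 111, 105 and 107 CPM in vector cells (-0.34 ± 0.08, edgeR adjusted p = 0.0124). Leaving out vector replicate 1 or 3 ended that call (edgeR adjusted p = 0.0733 and 0.0620). OGT, which modifies NFE2L1 with a sugar, had the next smallest p (-0.21 ± 0.07, edgeR adjusted p = 0.0824).

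In the list of interferon control and peptide loading 7 of 21 genes rose and 0 fell by edgeR. Over all tested genes, 4.63% rose and 6.94% fell. At an unadjusted edgeR p under 0.05, 9 listed genes were higher and 2 lower, where 11.8% and 13.3% of all tested genes were. TAP1, the peptide transporter gene next to PSMB9, had 79.2, 68.4 and 71.8 CPM in TFCP2L1 cells, against 51.5, 49.6 and 49.5 CPM in vector cells (0.54 ± 0.08, adjusted p = 0.000286). NLRC5 (0.48 ± 0.10), TAP2 (0.46 ± 0.07) and ERAP1 (0.37) rose as well; ERAP1 was not called without vector replicate 1 (edgeR adjusted p = 0.0714). IRF1, another activator of immunoproteasome genes, was not called (0.25 ± 0.11, edgeR adjusted p = 0.152). The median log2 fold change was 0.10 in this list, 0.05 in the ubiquitin list and -0.06 in the NFE2L1 list, beside 0.00 for all tested genes. The interferon list was chosen with results of these libraries known, so its direction is not independent evidence.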

How the data were processed

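The authors deposited raw read counts for 21173 genes and FPKM values for the same genes. Per the submitters' processing notes, the tools were fastp, HISAT2 and HTSeq (versions not listed) and the build was GRCh38.p13; strand use and other settings are not stated there. Each deposited FPKM equals the count divided by 1 gene length and the library total, within 0.1 percent, so FPKM adds no measurement. Column names carry a group and a number, by which they were assigned to libraries.

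The main test was edgeR 4.0.16 in R 4.3.3 on the counts: filterByExpr (14431 genes kept), TMM scaling, and a robust, two-sided quasi-likelihood F-test of TFCP2L1 against vector over the 6 libraries. A call needed an adjusted p under 0.05 (Benjamini-Hochberg over all 14431 genes). Each SE is the log2 fold change over the square root of F. The common dispersion was 0.0116. Replicates differed by more than sampling noise (chi-square per gene 7.49 to 42.4), so none was a copy. On simulated counts of 14254 genes for this comparison, 10 of 49 genes changed 1.3-fold were called, 32 of 48 at 1.5-fold, 37 of 50 at 2-fold and 45 of 50 at 4-fold, and 9 of 133 calls were false. The alternatives were other scalings and filters, DESeq2 1.42.0, limma 3.58.1 (voom, and log2 of FPKM plus 1 or 0.1), a replicate block, and fewer libraries.

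Gene positions and exon overlaps come from GENCODE v29 on GRCh38 (47 of 48 members matched), and promoter windows from RefSeq on GRCh38.p14 (42 matched). Members, lists and tests were chosen with earlier results of these data known. Named genes are the inducible genes, the subunits they replace, every called member, the extremes of each role, and from other lists up to 4 called genes by size of change, or 2 by smallest p if fewer were called. PSMA7, PSMC1, PSMC3IP, PSMD3, PSMD6, PSMD12, PSME3, PSME3IP1, PSMF1, PSMG4, NFE2L1, POMP and IRF1 were chosen after their values were seen. Some genes of the other lists are not reported here.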

Additional observations from a re-analysis of the deposited data

How the results depend on the processing

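Against the main count of 3 members higher and 0 lower, the count higher was 5 with library totals only and with DESeq2, 6 with no low count filter and 1 with a replicate block. It ran from 0 to 6 when 1 library was left out, and the count lower from 0 to 1. PSMB8 was no longer called with upper quartile scaling (log2 fold change 0.30, adjusted p = 0.0514), limma on log2(FPKM + 1) (0.32, 0.0848), limma on log2(FPKM + 0.1) (0.32, 0.0807) and the replicate block (0.30, 0.0996), and ran from 0.20 to 0.37 with 1 library left out. PSMB9 was called in every alternative except without TFCP2L1 replicate 1 or vector replicate 3, with a range of 0.48 to 0.76, and 0.80 without vector replicate 2 and TFCP2L1 replicate 3. PSMB10 was called only without TFCP2L1 replicate 2 and ran from 0.28 to 0.45. PSME2 was called with library totals only (0.30), DESeq2 (0.28) and no filter (0.28), and ran from 0.20 to 0.35. PSMD11 was not called with the replicate block (adjusted p = 0.0631). The ratio of PSMB9 to PSMB6, PSMB8 to PSMB5 and PSMB10 to PSMB7 kept its direction throughout. PSMB5, at 0.00, turned to -0.00264 with upper quartile scaling, -0.0042 with limma-voom and -0.00419 with the replicate block. Ranges with 1 library left out crossed 0 for PSMB5 (-0.12 to 0.0905), PSMB6 (-0.0924 to 0.12), PSMB7 (-0.11 to 0.0207), PSMA5 (-0.16 to 0.0256), PSMC5 (-0.0617 to 0.17) and PSMD9 (-0.22 to 0.0642). The labels do not say that libraries of the same number are paired. Deviations of same-numbered libraries correlated at 0.0721, -0.161 and -0.124, and those of TFCP2L1 replicate 3 and vector replicate 2 at 0.220. Whether a block by number suits these libraries was not tested. The cause of these shifts was not tested. With 3 libraries a group, changes under 1.5-fold were often missed in simulation. The genes changed there were drawn at random from all tested genes. In vector cells the median level was 5.19 FPKM for all tested genes and 47.9 FPKM for the members. The simulation therefore does not give the rate at which changes in the members are missed.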
